A study of Mus musculus with 8 samples.

Results

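The genes described here are 10 genes of the bone morphogenetic protein (BMP) pathway, chosen by symbol. They comprise the receptors *Bmpr1a*, *Bmpr1b* and *Bmpr2*, the inhibitory SMAD gene *Smad6*, the inhibitor of differentiation genes *Id1*, *Id2*, *Id3* and *Id4*, and the secreted antagonists *Fst* and *Ctgf*. All 10 were found among the 13506 genes listed at E11.5 and among the 13413 listed at E14.5. RNA-seq had been performed on mouse sympathetic ganglia of 2 *Isl1* mutants and their controls, to learn which genes depend on the LIM homeodomain transcription factor ISL1. At E11.5 the mutant was the *Isl1* CKO (Wnt1-Cre;Isl1 f/f, genotype Isl1-/- in the labels) and the control was Wnt1-Cre;Isl1+/+ (wild type in the labels). Both carried a Rosa26-tdTomato reporter, under which tissue without fluorescence was trimmed away, and the methods give the stage as E11.5 to E12. At E14.5 the mutant was the *Isl1* hypomorph (*Isl1* f-neo/f-neo, labelled as an *Isl1* mutation) and the control was wildtype (Isl1+/+). Wnt1-Cre acts throughout the neural crest lineage, which forms glia as well as sympathetic neurons, whereas every cell of the hypomorph carries the f-neo allele. Stage and kind of mutation cannot be told apart. Each genotype and stage had 2 libraries, each from the pooled ganglia of about 10 embryos.

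BMPs are secreted ligands that assemble a type II receptor, such as BMPR2, with a type I receptor, such as BMPR1A or BMPR1B. The type I receptor phosphorylates SMAD1, SMAD5 and SMAD9, which enter the nucleus with SMAD4 and turn on target genes, among them the Id genes and *Smad6*. The dorsal aorta secretes BMPs, and neural crest cells that settle beside it take the sympathetic fate under their influence. Id proteins lack a basic region and hold back basic helix-loop-helix factors by binding their E protein partners, and secreted antagonists bind the ligands outside the cell.

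The stretches upstream of 4 of these genes, the BMP-responsive genes with an entry in the RefSeq promoter table, are shown because SMAD proteins are known to bind particular short motifs near such genes. A promoter was found for 7 of the 10 genes, and those of *Id1*, *Fst* and *Ctgf* are not shown. Each sequence runs from 250 bases before the annotated transcription start to 20 bases after it, 5′ to 3′ on the strand of the gene, in GRCm38.p6. Capitals mark GTCT or its reverse complement AGAC, the SMAD box, and GGCGCC, a GC-rich motif known from SMAD1 and SMAD5 binding, which reads the same on both strands.
*Smad6*, chr9:64022040-64022309, minus strand: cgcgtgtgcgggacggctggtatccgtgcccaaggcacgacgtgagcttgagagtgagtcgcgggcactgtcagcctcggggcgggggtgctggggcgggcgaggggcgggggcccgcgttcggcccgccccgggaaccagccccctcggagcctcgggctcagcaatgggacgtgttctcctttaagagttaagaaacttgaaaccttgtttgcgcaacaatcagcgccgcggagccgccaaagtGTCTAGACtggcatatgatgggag
*Id2*, chr12:25096073-25096342, minus strand: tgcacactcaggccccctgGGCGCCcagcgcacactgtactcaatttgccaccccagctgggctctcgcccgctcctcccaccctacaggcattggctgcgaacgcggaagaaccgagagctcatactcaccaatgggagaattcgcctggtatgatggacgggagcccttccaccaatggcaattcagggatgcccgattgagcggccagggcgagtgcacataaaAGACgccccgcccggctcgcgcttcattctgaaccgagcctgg
*Id3*, chr4:136143572-136143841, plus strand: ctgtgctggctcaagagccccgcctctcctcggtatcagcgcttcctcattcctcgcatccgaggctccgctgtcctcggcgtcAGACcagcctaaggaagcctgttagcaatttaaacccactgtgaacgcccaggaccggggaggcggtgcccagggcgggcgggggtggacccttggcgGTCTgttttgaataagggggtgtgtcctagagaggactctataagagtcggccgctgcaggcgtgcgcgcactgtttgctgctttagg
*Id4*, chr13:48260866-48261135, plus strand: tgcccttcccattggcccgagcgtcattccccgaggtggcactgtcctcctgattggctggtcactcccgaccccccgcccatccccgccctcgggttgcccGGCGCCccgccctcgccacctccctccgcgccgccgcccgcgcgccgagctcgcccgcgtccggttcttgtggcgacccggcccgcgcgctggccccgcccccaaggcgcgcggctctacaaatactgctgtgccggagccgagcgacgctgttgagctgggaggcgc

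In *Smad6* a GTCT and an AGAC lay side by side across the start itself, from position -4 to 4, where position 1 is the first transcribed base and no position 0 exists. Together they form the palindrome GTCTAGAC, which was held by 60 of 32851 promoters of the same length, or 0.183%. GGCGCC stood at -231 to -226 in *Id2* and at -148 to -143 in *Id4* and was also found 1 time each upstream of *Bmpr1a* and *Bmpr2*. It was held by 10.4% of all promoters. The 4-base SMAD box is so short that 85.2% of promoters held at least 1, and *Id3* held 2 and *Id4* held 0. The 3 annotated starts of *Bmpr1b* had 2, 7 and 3 SMAD boxes and no GGCGCC, and some of these windows overlap. These matches describe letters in a window and are no evidence of binding.

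The unit of all levels is FPKM (fragments scaled to transcript length and to the number of mapped fragments), which the authors computed as 1 value per genotype and stage from the 2 libraries together. A gene is listed only if it reaches 1 FPKM in either genotype. One that is under 1 FPKM in 1 genotype is thus listed through the other, so counts and medians over low listed genes partly follow from this rule. No library has a value of its own in the tables, and no read numbers are given. Neither sequencing depth nor variation among libraries can be known from them, and differences computed from these pooled values have no replicate check and no test. Differences are given as the log2 ratio of mutant to control after adding 0.1 to each FPKM, a pseudocount that pulls the ratios of low genes towards 0, and 1.5-fold (0.58 on the log2 scale) is used as the mark. The log2 ratios of all genes at E11.5 had a median of 0.05 and quartiles of -0.31 and 0.45, and at E14.5 a median of 0.00 and quartiles of -0.11 and 0.13. *Isl1* was listed at 133 FPKM in E11.5 control and 40.0 FPKM in *Isl1* CKO ganglia, a log2 ratio of -1.73. It was listed at 162 FPKM in E14.5 wildtype and 83.1 FPKM in hypomorphic ganglia, a log2 ratio of -0.96. All 17 sympathetic neuron markers were listed at both stages, among them *Tubb3* (658 FPKM in E11.5 control) and *Dbh* (543 FPKM in E11.5 control). The E11.5 libraries also differed in genes of blood cells. Erythroid genes took 2.29% of the summed FPKM in control and 11.2% in *Isl1* CKO ganglia, although the globin gene *Hbb-y* was listed at 7552 FPKM in control and at 0 in *Isl1* CKO ganglia. The summed FPKM of all listed genes at E11.5 was 476289 in control and 617263 in *Isl1* CKO ganglia. After FPKM was scaled to equal sums with erythroid genes left out, the median log2 ratio of all genes at E11.5 became -0.18. Under that scaling the downward shift applies to each E11.5 ratio below. The shift arose because the other genes also summed higher in *Isl1* CKO ganglia, so it is no correction for the erythroid share. After rescaling to the upper quartile instead, the E11.5 median was 0.04. At E14.5 rescaling without erythroid genes moved the median to 0.03.

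At E11.5, 6 of the 10 genes were higher in *Isl1* CKO than in control ganglia by 1.5-fold or more, namely *Smad6*, *Id1*, *Id3*, *Id4*, *Fst* and *Ctgf*. *Bmpr1b* alone was at least 1.5-fold lower, and *Bmpr1a*, *Bmpr2* and *Id2* lay inside the mark in either direction. Of all genes at this stage, 18.9% were higher and 12.9% were lower by this measure. The median log2 ratio of the 10 genes was 0.75. After rescaling without erythroid genes, 4 of the 10 remained at least 1.5-fold higher and 1 lower, since *Id1* (log2 ratio 0.55) and *Id3* (0.47) came under the mark. Under that rescaling 1648 genes were higher and 3035 lower, against 2552 and 1746 as deposited. After rescaling to the upper quartile, 6 of the 10 genes were higher and 1 lower at E11.5. Of all genes, 2507 were then higher and 1803 lower. At E14.5, 0 of the 10 genes were 1.5-fold apart in either direction, where 2.89% of all genes were higher and 2.12% lower, and their median log2 ratio was 0.18. The ganglia are mixtures of cells, in which fewer cells of a type and less RNA per cell cannot be told apart.

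**Figure D1:**
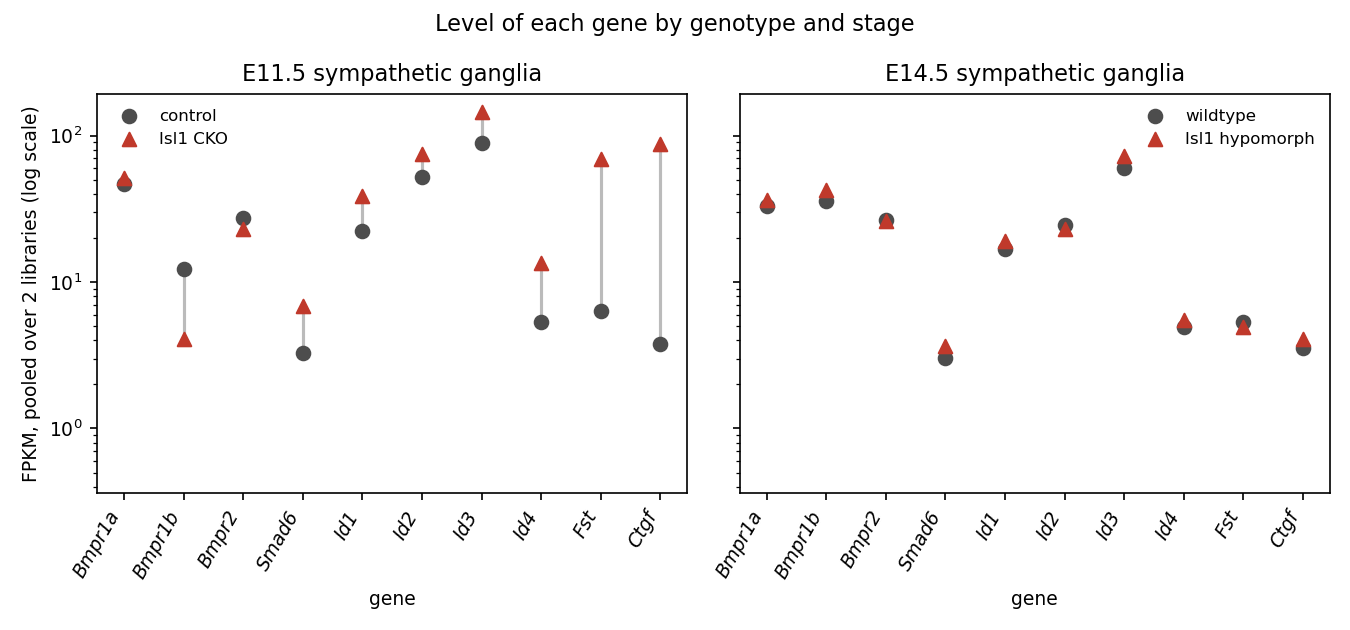
FPKM of each of the 10 genes on a log axis, with controls as grey circles and *Isl1* mutants as red triangles, at E11.5 (left) and E14.5 (right). Each symbol is 1 value pooled over 2 libraries, so there are no error bars. The symbols part widely at E11.5 for *Bmpr1b*, *Fst* and *Ctgf* and nearly coincide at E14.5.

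*Bmpr1b* (mm9, chromosome 3, 141500100 to 141832389, minus strand) encodes a type I receptor that also takes part in cartilage and limb formation. It was listed at 12.2 FPKM in E11.5 control and 4.07 FPKM in *Isl1* CKO ganglia, so the mutant held about 2.94-fold less. The log2 ratio of -1.55 was lower in only 253 genes of the table. At E14.5 *Bmpr1b* was listed at 35.9 FPKM in wildtype and 42.6 FPKM in hypomorphic ganglia, a log2 ratio of 0.25. The log2 ratio of the E14.5 pair thus lay on the other side of 0 from that of the E11.5 pair.

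*Bmpr1a* (chromosome 14, 35223920 to 35316527, minus strand), the more widely expressed type I receptor, had 46.9 FPKM in E11.5 control and 51.1 FPKM in *Isl1* CKO ganglia. Its log2 ratio was 0.12 as deposited and -0.11 after rescaling without erythroid genes, so its direction at E11.5 depended on the scaling. At E14.5 it had 33.3 FPKM in wildtype and 36.6 FPKM in hypomorphic ganglia, a log2 ratio of 0.14. *Acvr1*, which encodes the other BMP type I receptor that most tissues use, had 15.3 FPKM in E11.5 control and 19.9 FPKM in *Isl1* CKO ganglia.

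A share within 1 genotype does not depend on the scaling between columns. Of the summed FPKM of *Bmpr1a*, *Bmpr1b* and *Acvr1*, *Bmpr1b* made up 16.4% in E11.5 control and 5.43% in *Isl1* CKO ganglia. The sum itself was 74.4 FPKM in control and 75.0 FPKM in *Isl1* CKO ganglia, and unlike the shares it depends on the scaling. At E14.5 the share of *Bmpr1b* was 44.1% in wildtype and 46.7% in hypomorphic ganglia. The ratio of *Bmpr1b* to *Bmpr1a* was 0.259 in E11.5 control, 0.0798 in *Isl1* CKO, 1.08 in E14.5 wildtype and 1.17 in hypomorphic ganglia. *Bmpr1a* therefore stood above *Bmpr1b* in both E11.5 genotypes and below it in both E14.5 genotypes. The tables of the 2 stages were normalized separately, but this order within a column does not rest on a comparison of levels across them.

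**Figure D2:**
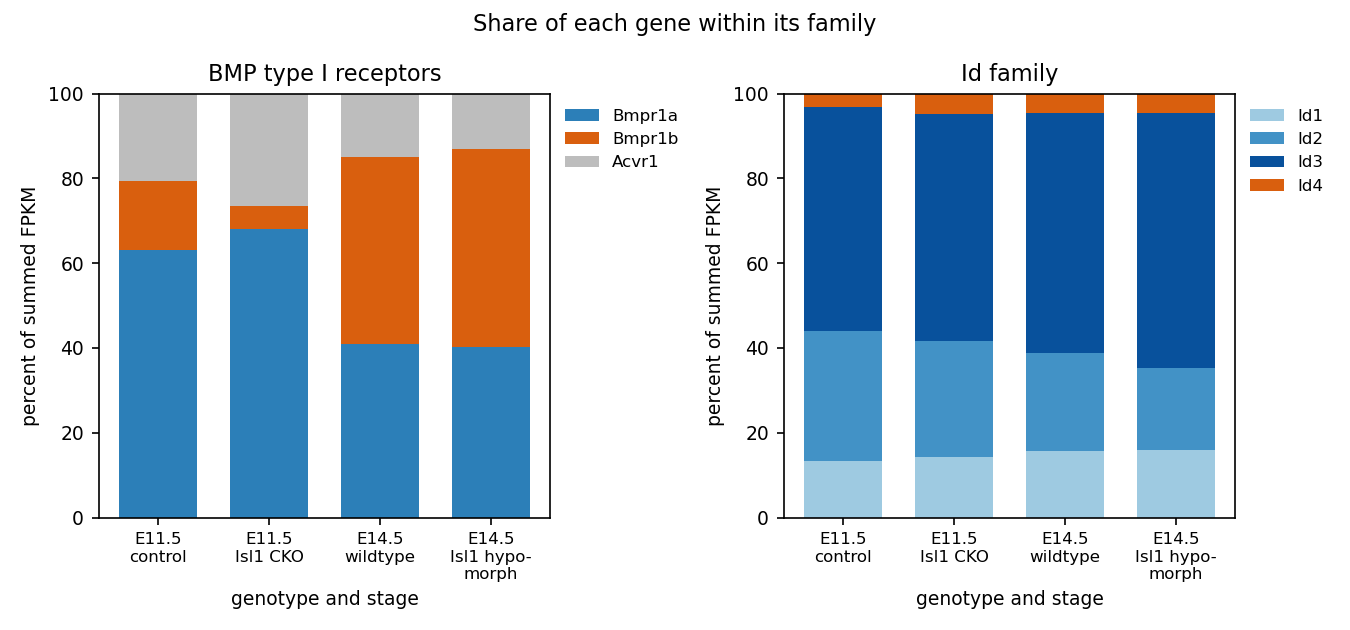
Share of each gene in the summed FPKM of the BMP type I receptors (left) and of the Id family (right), as stacked bars that add to 100% for each genotype and stage. Each bar is 1 pooled value without an error. *Bmpr1b* takes 16.4% in E11.5 control against 5.43% in *Isl1* CKO ganglia, and *Id3* is the largest part of the Id family in every bar.

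*Bmpr2* (chromosome 1, 59821481 to 59927703, plus strand) encodes the type II receptor that is specific to BMPs. It had 27.5 FPKM in E11.5 control and 23.1 FPKM in *Isl1* CKO ganglia, a log2 ratio of -0.25, and 26.5 FPKM in E14.5 wildtype and 26.2 FPKM in hypomorphic ganglia, a log2 ratio of -0.02. The E14.5 pair was the closest among the 3 receptors. Among the 6 listed type I receptors, the TGF-beta and activin receptors included, 0 were higher and 1 was lower at E11.5, with a median log2 ratio of -0.13, and 0 were past the mark at E14.5. After rescaling without erythroid genes, 3 of the 6 were lower at E11.5, with a median of -0.36, since *Acvr1b*, an activin receptor gene (-0.63), and *Tgfbr1*, a TGF-beta receptor gene (-0.61), joined *Bmpr1b*. Of the 4 listed type II receptors, *Tgfbr2*, the TGF-beta receptor, was higher (8.16 FPKM in control, 14.9 in *Isl1* CKO) and *Acvr2b*, an activin receptor, was lower (13.7 FPKM in control, 7.60 in *Isl1* CKO). The co-receptor list had 7 listed genes, of which *Rgma*, a BMP co-receptor of the repulsive guidance family, and *Hfe2* were higher at E11.5 and 0 were lower. Rescaling without erythroid genes left 1 of these higher, *Hfe2*. At E14.5 its relative *Rgmb* was the list's 1 gene past the mark, at 79.5 FPKM in wildtype and 47.1 FPKM in hypomorphic ganglia, a log2 ratio of -0.76.

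*Smad6* (chromosome 9, 63800953 to 63869866, minus strand) encodes an inhibitory SMAD that BMP signaling induces and that blocks the receptor-regulated SMADs. It was listed at 3.27 FPKM in E11.5 control and 6.82 FPKM in *Isl1* CKO ganglia, a log2 ratio of 1.04, and at 3.03 FPKM in E14.5 wildtype and 3.64 FPKM in hypomorphic ganglia, a log2 ratio of 0.25. All 4 levels were low, and the E11.5 *Isl1* CKO value was the highest. *Smad7*, the other inhibitory SMAD, had 2.17 FPKM in E11.5 control and 1.69 FPKM in *Isl1* CKO ganglia. The ratio of *Smad6* to *Smad7* was accordingly 1.51 in control and 4.04 in *Isl1* CKO ganglia, against 1.45 in E14.5 hypomorphic ganglia.

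Among the 8 SMAD genes, 2 were higher and 1 lower at E11.5, with a median log2 ratio of 0.07. The other higher gene was *Smad3*, a TGF-beta and activin SMAD (8.46 FPKM in control, 14.7 in *Isl1* CKO). The lower gene was *Smad1*, a BMP SMAD, with 24.0 FPKM in control and 14.8 FPKM in *Isl1* CKO ganglia, a log2 ratio of -0.69. The partner SMAD gene *Smad4* had 43.2 FPKM in both genotypes, and *Smad5* had 28.6 FPKM in control and 31.5 FPKM in *Isl1* CKO ganglia. Of 14 listed intracellular regulators of SMADs, 1 was higher (*Ctdsp2*, a phosphatase gene, 51.2 FPKM in control and 78.2 in *Isl1* CKO) and 1 was lower (*Zfp423*, a zinc finger partner of SMADs, 12.0 FPKM in control and 7.02 in *Isl1* CKO), with a median log2 ratio of -0.02. After rescaling without erythroid genes, 1 SMAD gene (*Smad6*) was higher and 2 were lower, and 0 regulators were higher and 2 lower. At E14.5, 0 of the 8 SMAD genes and 0 of the 14 regulators were 1.5-fold apart.

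The 4 Id genes were all higher in *Isl1* CKO than in control ganglia at E11.5, and 3 of them passed 1.5-fold. After rescaling without erythroid genes only *Id4* did, since *Id1* (log2 ratio 0.55) and *Id3* (0.47) came under the mark. *Id3* (chromosome 4, 135699412 to 135701670, plus strand), whose 2 SMAD boxes are shown above, had the highest level of the family, with 89.3 FPKM in control and 146 FPKM in *Isl1* CKO ganglia, a log2 ratio of 0.71. *Id2* (chromosome 12, 25778666 to 25780957, minus strand) had 52.1 FPKM in control and 75.0 FPKM in *Isl1* CKO ganglia, a log2 ratio of 0.52 that stayed under the mark. *Id1* (chromosome 2, 152561987 to 152563146, plus strand), a common readout of BMP signaling, had 22.5 FPKM in control and 39.0 FPKM in *Isl1* CKO ganglia, a log2 ratio of 0.79. The least abundant member had the steepest difference. *Id4* (chromosome 13, 48356796 to 48359405, plus strand), known from neural and glial progenitors, had 5.32 FPKM in control and 13.5 FPKM in *Isl1* CKO ganglia, a log2 ratio of 1.33, and after rescaling without erythroid genes its log2 ratio was 1.10. A long noncoding RNA on the opposite strand (*A330033J07Rik*) overlaps *Id4* in the mm9 annotation, and the sources used here do not say that counting used strand.

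The order of levels, *Id3* above *Id2* above *Id1* above *Id4*, was the same in all 4 genotypes and stages. At E14.5 *Id3* had 60.4 FPKM in wildtype and 72.5 FPKM in hypomorphic ganglia, *Id2* 24.7 and 23.1, *Id1* 16.8 and 19.2, and *Id4* 4.96 and 5.55. The corresponding log2 ratios of 0.26, -0.09, 0.19 and 0.16 were all within the mark. The summed FPKM of the 4 genes was 169 in E11.5 control and 273 in *Isl1* CKO ganglia, and 107 and 120 in E14.5 wildtype and hypomorphic ganglia. Of this sum at E11.5, *Id3* made up 52.8% in control and 53.4% in *Isl1* CKO ganglia, *Id1* 13.3% and 14.3%, *Id2* 30.8% and 27.4%, and *Id4* 3.14% and 4.95%. The share of *Id2* was 23.1% in E14.5 wildtype and 19.2% in hypomorphic ganglia.

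Other cell types that the dissected tissue can hold moved with the Id genes at E11.5. Of 12 neural crest and glia markers, 11 passed 1.5-fold towards the mutant, at a median log2 ratio of 1.17 and a summed FPKM of 352 in control and 781 in *Isl1* CKO, and none was listed at 0. *Fabp7*, a lipid-binding protein gene of glial progenitors, had 90.9 and 208 FPKM. Of 13 mesenchyme markers, 9 were higher, with a median of 0.79 and sums of 792 and 1349 FPKM, and the collagen gene *Col1a2* had 193 and 352 FPKM. Sympathetic neuron markers had 8 of 17 lower and 0 higher, a median of -0.46 and sums of 3564 and 2932 FPKM. The Id sum divided by the mesenchyme sum was 0.214 in control and 0.203 in *Isl1* CKO ganglia, divided by the neural crest and glia sum 0.481 and 0.350, and divided by the sympathetic neuron sum 0.0475 and 0.0933. At E14.5 the same ratios were 0.0670 and 0.0678 to mesenchyme, 0.207 and 0.206 to neural crest and glia, and 0.0179 and 0.0241 to sympathetic neuron markers. The part of these cell types in the Id values was not tested.

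A wider list of helix-loop-helix genes holds the E protein genes and others, the Hes and Hey genes among them. At E11.5, 16 of its 21 symbols were listed, of which 7 were higher and 2 lower, with a median log2 ratio of 0.47. This median was -0.04 when genes under 5 FPKM in both genotypes were left out, so its direction depended on the low genes. *Neurog2* and *Neurod4*, both higher, were under 1 FPKM in control, so their direction was set by the listing rule. The E protein gene *Tcf3*, a direct partner of Id proteins, had 57.0 FPKM in control and 55.2 FPKM in *Isl1* CKO ganglia. The Notch target gene *Heyl* was higher, with 10.1 and 19.7 FPKM. The lower genes were *Hand1*, a sympathetic helix-loop-helix factor, with 224 and 85.9 FPKM, and its relative *Hand2*, with 298 and 193 FPKM. At E14.5, 1 of 15 listed genes was higher (*Neurod1*, chosen after its values were seen, log2 ratio 0.88) and 0 were lower.

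The Id genes parted at E11.5 from the sympathetic transcription factors that BMPs also induce. On the list of 15 listed BMP target transcription factors, 5 were higher and 6 lower, with a median log2 ratio of -0.04. After rescaling without erythroid genes, 1 was higher (*Id4*) and 7 were lower. The 5 were *Id1*, *Id3*, *Id4* and 2 low genes, *Atoh8* (2.65 and 4.42 FPKM) and *Dlx5* (1.42 and 2.52 FPKM), both named after their values were seen. Among the 6 were *Gata2*, *Gata3*, *Hand1*, *Hand2* and *Insm1*. *Gata2* had the steepest difference, with 42.8 FPKM in control and 3.22 FPKM in *Isl1* CKO ganglia, a log2 ratio of -3.69. Without the 4 Id genes, the median of the other 11 was -0.62. *Phox2a*, which encodes a homeodomain factor of these neurons, had 223 FPKM in control and 174 FPKM in *Isl1* CKO ganglia. At E14.5 *Phox2a* was the 1 gene of this list past the mark, with 553 FPKM in wildtype and 360 FPKM in hypomorphic ganglia, while *Gata2* had 129 and 133 FPKM.

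**Figure D3:**
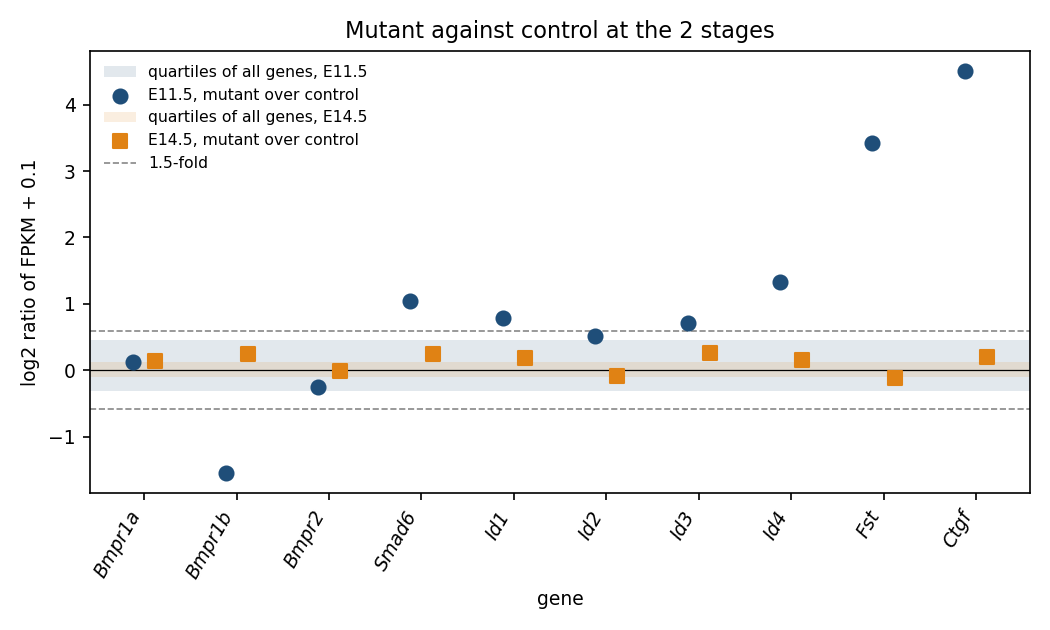
Log2 ratio of mutant to control FPKM (after adding 0.1) for each of the 10 genes, with E11.5 as blue circles and E14.5 as orange squares. Shaded bands run from the lower to the upper quartile of all genes of each stage, dashed lines mark 1.5-fold, and each symbol is 1 pooled ratio without an error. *Ctgf* (4.51) and *Fst* (3.43) stand highest and *Bmpr1b* (-1.55) lowest at E11.5, and all 10 squares lie between the dashed lines.

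*Fst* (chromosome 13, 115242470 to 115249159, minus strand) encodes follistatin, a secreted protein that binds activins tightly and several BMPs more weakly. It was listed at 6.35 FPKM in E11.5 control and 69.6 FPKM in *Isl1* CKO ganglia, so the mutant held about 10.8-fold more. Only 131 genes of the table had a higher log2 ratio than its 3.43. At E14.5 *Fst* had 5.36 FPKM in wildtype and 4.91 FPKM in hypomorphic ganglia, a log2 ratio of -0.12. The E11.5 *Isl1* CKO value stood apart, and the other 3 values lay close together.

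*Ctgf* (chromosome 10, 24315248 to 24318489, plus strand), also called *Ccn2*, encodes a secreted matrix protein that binds BMP4 and is a common target of YAP and TGF-beta. It was listed at 3.76 FPKM in E11.5 control and 88.0 FPKM in *Isl1* CKO ganglia, a log2 ratio of 4.51, and 76 genes of the table had a higher one. At E14.5 it had 3.54 FPKM in wildtype and 4.08 FPKM in hypomorphic ganglia, a log2 ratio of 0.20. As for *Fst*, the E11.5 *Isl1* CKO value alone was high. A long noncoding RNA on the opposite strand (*Gm15270*) overlaps *Ctgf*, as *Gm17110* overlaps *Bmpr1a*, and neither was listed in the tables.

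Both genes were a larger part of the secreted BMP antagonist RNA in E11.5 *Isl1* CKO than in control ganglia. Of the summed FPKM of the listed antagonists, 205 in E11.5 control and 420 in *Isl1* CKO ganglia, *Fst* made up 3.10% and 16.6% and *Ctgf* 1.84% and 20.9%. At E14.5 the sums were 239 and 259, of which *Fst* made up 2.24% and 1.89% and *Ctgf* 1.48% and 1.57%. *Fstl1*, a distant relative of follistatin, was the most abundant antagonist throughout, with 120 FPKM in E11.5 control and 172 FPKM in *Isl1* CKO ganglia. Its share was 58.5% in E11.5 control and 40.8% in *Isl1* CKO ganglia, and 40.9% and 46.0% in E14.5 wildtype and hypomorphic ganglia. *Twsg1*, which encodes a chordin partner, was next in control, with 41.0 FPKM in control and 37.1 FPKM in *Isl1* CKO ganglia.

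Of the 15 listed antagonists, 7 were at least 1.5-fold higher and 1 was lower at E11.5, with a median log2 ratio of 0.58, which became 0.52 without *Fst* and *Ctgf*. After rescaling without erythroid genes, 6 were higher and 2 lower. The other higher genes included *Nog*, *Grem1*, *Bmper* and *Crim1*, named after their values were seen. *Nog*, which encodes the BMP antagonist noggin, had 0.880 FPKM in control and 4.39 FPKM in *Isl1* CKO ganglia. The lower gene was *Chrdl1*, which encodes a chordin relative, with 4.50 and 1.32 FPKM. At E14.5, 0 of 15 listed antagonists were higher and 2 were lower, and 1 of these was *Nbl1*, another member of the gremlin and DAN group, with 26.9 FPKM in wildtype and 17.4 FPKM in hypomorphic ganglia. The other was *Grem1*, with 1.05 and 0.653 FPKM, also chosen after its values were seen.

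The list of BMP and GDF genes had 9 of 16 symbols listed at E11.5, of which 3 were higher and 0 lower, with a median log2 ratio of 0.45. It holds *Bmp1*, which encodes a procollagen proteinase and no ligand and whose log2 ratio was 0.34, inside the mark. Of the 3 higher genes, *Gdf5* (0.573 and 1.39 FPKM) was listed only through *Isl1* CKO, so its direction was set by the listing rule. *Bmp4*, a ligand from the dorsal aorta, had 5.12 FPKM in control and 7.92 FPKM in *Isl1* CKO ganglia. *Gdf10*, also called *Bmp3b*, had 10.8 and 20.4 FPKM, and *Bmp3*, the most abundant ligand, had 25.1 and 20.5 FPKM at E11.5 and 61.5 and 73.9 FPKM at E14.5. The summed FPKM of *Fst* and *Ctgf* was 0.905 times that of the listed genes among *Bmp2*, *Bmp4*, *Bmp5*, *Bmp6* and *Bmp7* in E11.5 control and 9.69 times in *Isl1* CKO ganglia. At E14.5, where fewer of these ligands were listed, it was 2.05 and 2.18 times. Of the activins and related ligands, only some of which follistatin binds, 3 of 6 listed genes were higher and 1 lower at E11.5. *Inhba*, the activin A subunit gene, had 3.42 FPKM in control and 5.44 FPKM in *Isl1* CKO ganglia, and *Gdf1*, the steepest of this list, had a log2 ratio of 1.53. At E14.5 *Gdf1* was lower in the mutant, with 10.5 FPKM in wildtype and 5.56 FPKM in hypomorphic ganglia, and 1 of 4 listed genes was higher. That higher gene, *Mstn* (0.760 and 1.39 FPKM), was listed only through the hypomorph, so the listing rule set its direction. At E14.5, 0 of the 6 listed genes of the BMP and GDF list, *Bmp1* included, were 1.5-fold apart.

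*Ctgf* was also compared with its relatives and with genes of the pathways that control it. Of the 4 listed CCN family genes, 2 were higher at E11.5, and the second was *Cyr61* (*Ccn1*), with 3.93 FPKM in control and 15.4 FPKM in *Isl1* CKO ganglia. *Ctgf* and *Cyr61* had similar levels in control, at a ratio of 0.956, while the ratio was 5.72 in *Isl1* CKO ganglia and 0.608 and 0.622 in E14.5 wildtype and hypomorphic ganglia. Of 17 YAP and TAZ pathway genes, 11 were higher and 1 lower, with a median log2 ratio of 0.86, or 0.81 without *Ctgf*, and after rescaling without erythroid genes 9 were higher and 2 lower. Among the 11, *Ankrd1* and *Tead4* were under 1 FPKM in control, so their direction was set by the listing rule. The DNA-binding partner *Tead2* had 28.5 and 54.1 FPKM, and its relative *Tead1*, the lower gene, had 33.9 and 22.0 FPKM. Of the 10 listed TGF-beta ligands and targets, 8 were higher and 0 lower, with a median of 0.73, and after rescaling without erythroid genes 4 were higher, with a median of 0.50. The ligand gene *Tgfb1* had 4.40 FPKM in control and 9.60 FPKM in *Isl1* CKO ganglia, and the matrix gene *Thbs1* had 5.17 and 15.7 FPKM. At E14.5, 0 genes of these 3 lists were 1.5-fold apart.

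Genes of the parietal yolk sac, trophoblast and erythroid lists moved with *Fst* and *Ctgf* in the E11.5 *Isl1* CKO value. Of 19 parietal yolk sac markers, 18 were higher and 0 lower (17 and 1 after rescaling without erythroid genes), with a median log2 ratio of 2.06 and summed FPKM of 316 in control and 1165 in *Isl1* CKO ganglia. Genes of this list such as *Sparc* (129 FPKM) and *Col4a1* (36.1 FPKM) were abundant in E11.5 control ganglia too. The list therefore cannot be taken as specific to tissue outside the ganglia. *Lama1*, a laminin gene chosen after its values were seen, had 1.82 FPKM in control and 70.8 FPKM in *Isl1* CKO ganglia. Of 13 trophoblast and decidua markers, 6 were listed and 5 were higher, with a median of 5.51 and sums of 2.55 and 96.3 FPKM. The 5 were under 1 FPKM in control and were listed only through *Isl1* CKO, so their direction was set by the listing rule. Among them, the prolactin family gene *Prl8a2* had 0.241 and 48.4 FPKM. Of 13 listed erythroid genes, 12 were higher, with a median of 3.59, and *Hba-x*, an embryonic globin gene, had 2572 and 53627 FPKM. The ratio of *Fst* to *Lama1* was 3.50 in control and 0.983 in *Isl1* CKO ganglia, and that of *Ctgf* to *Lama1* was 2.07 and 1.24. In the E14.5 pair, parietal yolk sac markers had a median log2 ratio of 0.11, with sums of 592 and 675 FPKM, and *Lama1* had 2.19 and 1.81 FPKM. Only 1 of the trophoblast and decidua markers was listed at E14.5, at 1.19 and 1.72 FPKM. The part of these tissues in the values of *Fst* and *Ctgf* was not tested in these data, and the single libraries that carry them cannot be seen in the pooled values.

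The remaining marker lists also leaned towards *Isl1* CKO ganglia at E11.5. Macrophage markers were higher for 9 of 10 genes (median log2 ratio 1.17), cartilage markers for 6 of 7 listed (0.75) and skeletal muscle markers for 6 of 9 (0.72). Visceral yolk sac and liver markers were higher for 5 of 6 listed (0.82) and sensory neuron markers for 6 of 7 listed (1.46). These last 2 lists were low, and sensory neuron markers summed to 7.14 FPKM in control and 16.3 FPKM in *Isl1* CKO ganglia. *Pou4f1*, *Neurog2*, *Neurod4*, *Prdm12*, *Isl2*, *Apoa1* and *Ttr* were under 1 FPKM in control and were listed only through *Isl1* CKO. The direction of these genes was thus set by the listing rule. Endothelial markers were higher for 2 of 12 (0.47), and mesonephros and gonad markers for 1 of 4 listed (0.49), with 1 lower. Several of these counts rested on the scaling. After rescaling without erythroid genes, skeletal muscle markers were higher for 1 of 9 (median 0.48), cartilage markers for 2 of 7 (0.53), visceral yolk sac and liver markers for 3 of 6 (0.59) and endothelial markers for 0 of 12 (0.23). At E14.5 the medians were 0.47 for endothelial, 0.27 for mesenchyme, 0.14 for neural crest and glia, -0.12 for sympathetic neuron, 0.38 for erythroid, 0.30 for macrophage, 0.08 for cartilage, -0.14 for skeletal muscle, 0.03 for mesonephros and gonad, 0.57 for visceral yolk sac and liver, and 0.54 for sensory neuron markers. *Smad6* and *Id1*, which vessel walls also express, had log2 ratios of 0.25 and 0.19 at E14.5. There the median of the 10 genes was 0.18 and all 12 endothelial markers lay between 0.36 and 0.63. The part of vessels in these ratios was not tested.

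**Figure D4:**
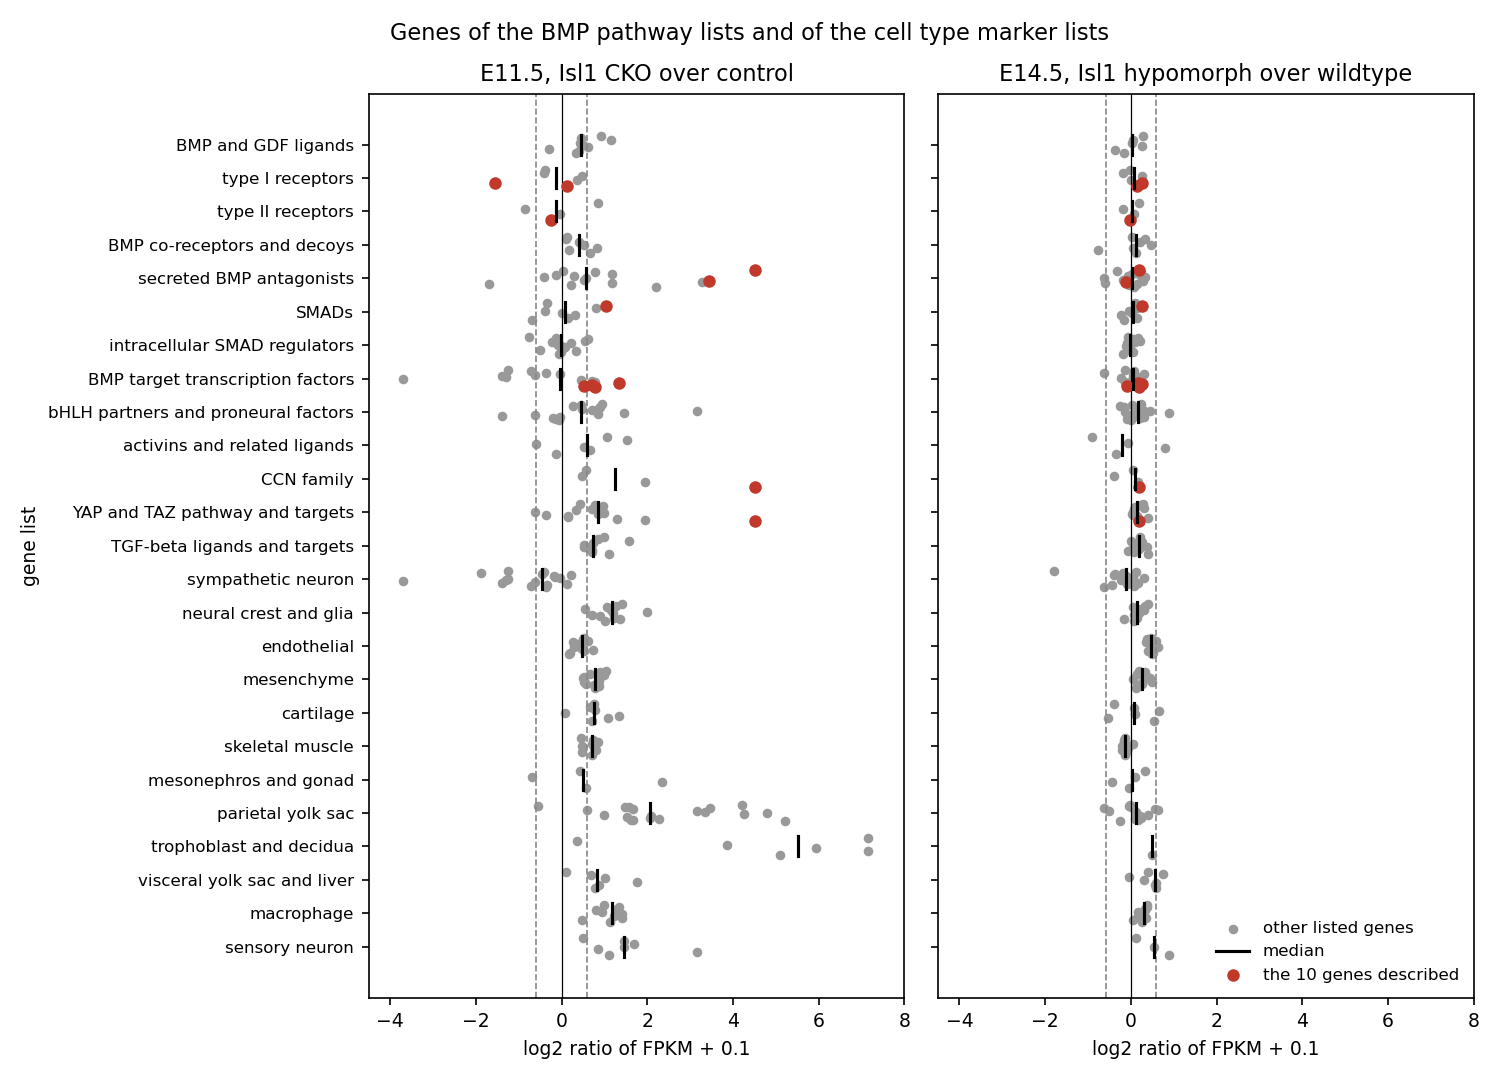
Log2 ratios of mutant to control FPKM (after adding 0.1) for the listed genes of each pathway and marker list, at E11.5 (left) and E14.5 (right), with the 10 genes in red, other genes in grey, black bars as list medians and dashed lines at 1.5-fold. Erythroid genes are left out for scale, and each point is 1 pooled ratio without an error. The E11.5 lists spread widely, with medians from -0.46 (sympathetic neuron) to 5.51 (trophoblast and decidua), and the E14.5 points crowd around 0. The median of 5.51 rests mostly on genes listed only through *Isl1* CKO.

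For the 4 genes with the steepest differences at E11.5, the genes with the nearest pair of log2 ratios were found by Euclidean distance over the 2 stages, which rests on only 2 comparisons. *Bmpr1b* was nearest to *Mdc1* (-1.54 at E11.5 and 0.29 at E14.5), *Islr2* (-1.50 and 0.19) and the neurofilament gene *Nefm* (-1.52 and 0.33), among 9270 genes. *Nefm* had 724 FPKM in E11.5 control and 253 FPKM in *Isl1* CKO ganglia, far above *Bmpr1b* in level. *Id4* was nearest to *Fcer1g* (1.34 and 0.17), *Cmtm7* (1.29 and 0.15) and *Sertad3* (1.29 and 0.18). The genes nearest to *Fst* included *Lars2* (3.42 and -0.19) and *Cited4* (3.26 and -0.14), and *Ctgf* was nearest to *Tinagl1* (4.36 and 0.31), the globin gene *Hbb-b2* (4.72 and 0.10) and *Srgn* (4.26 and 0.11), among 9815 genes. *Srgn*, which encodes the proteoglycan serglycin, is also on the parietal yolk sac list.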

How the data were processed

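RNA was extracted from pooled sympathetic ganglia, and mRNA was isolated on oligo(dT) beads. Per the study's methods, SMARTer libraries were sequenced with paired ends on an Illumina HiSeq, aligned to mm9 with TopHat, and unique reads were quantified with cuffdiff. The submitters' processing notes instead name Bowtie, TopHat 1.3.1, Cuffdiff 1.3.0 and the fly build dm3, although the tables hold mouse genes. The deposited FPKM values were computed by the authors, with the 2 libraries of a genotype combined and only genes that reach an FPKM of 1 in some genotype kept. A low FPKM rests on few fragments, but depth and precision could not be given. The deposited tables also hold the authors' log2 fold changes and p-values between genotypes, which were not used.

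Log2 ratios with a pseudocount of 0.1, counts past 1.5-fold, list medians, and shares within a column were computed from FPKM. No test was possible. The 10 genes, the lists and the rules were chosen with earlier results of these data known. Genes were named when they were among the 10 or *Isl1*, the 3 most abundant or 2 steepest (FPKM of at least 5) of a pathway list, the 2 most abundant of a marker list, or the 3 nearest by log2 ratios (FPKM of at least 5 in either genotype at both stages, or at E11.5 for *Fst* and *Ctgf*, without Mir, Snor and Rn symbols). *Acvr1*, *Fstl1*, *Smad7*, *Hfe2* and further genes were chosen for their role or after their values were seen. Gene positions came from the NCBIM37 (mm9) annotation, and promoters from RefSeq, GRCm38.p6. Alternatives were other pseudocounts (1 and 0.01), thresholds (1.2- and 2-fold), scalings (centred on the median, rescaled to the upper quartile or without erythroid genes), FPKM filters (5 in either genotype or 1 in both), and lists. Some genes that these rules name are not reported here. The steps were tested on simulated data. Python 3.11.15, numpy 2.4.6, pandas 2.3.3, and matplotlib 3.10.9 were used.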

Additional observations from a re-analysis of the deposited data

Results flagged for a closer look

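The log2 ratio of *Bmpr1b* was -1.55 at E11.5 and 0.25 at E14.5, which is -1.80 apart, and that of *Fst* was 3.43 at E11.5 and -0.12 at E14.5, which is 3.56 apart. For both genes the *Isl1* CKO ratio was past 1.5-fold and the *Isl1* hypomorph ratio lay on the other side of 0. The difference was not tested, since each ratio comes from 1 pooled value per genotype, and stage and kind of mutation cannot be told apart. The E14.5 ratios of both genes were well inside 1.5-fold. *Id2* also had ratios on both sides of 0 (0.52 at E11.5 and -0.09 at E14.5), both inside 1.5-fold.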

How the results depend on the processing

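No paired analysis was possible because each column pools the 2 libraries of a genotype, and for the same reason no library could be left out in turn. Of 100 log2 ratios of the 10 genes under the alternatives, 98 kept their side of 1.5-fold and 2 moved, *Id1* (0.55) and *Id3* (0.47) at E11.5 after rescaling without erythroid genes. None of the ratios past 1.5-fold changed sign. At 1.2-fold, 1 of the 10 genes (*Id3*) was higher at E14.5. Without *Fstl1* and *Crim1*, *Fst* made up 8.67% of antagonist FPKM in E11.5 control and 30.5% in *Isl1* CKO ganglia, and *Ctgf* 38.5% in *Isl1* CKO ganglia. Of the list medians, 198 kept their side of the mark and 10 crossed it, and some medians inside the mark changed sign. The counts over all genes moved more. At 1.2-fold 4697 were higher and 3711 lower at E11.5 and 1638 and 1209 at E14.5, and at 2-fold 1137 and 652 at E11.5 and 131 and 105 at E14.5. Among genes reaching 5 FPKM in 1 genotype or more, 1556 were higher at E11.5, and 225 were higher and 173 lower at E14.5. Among genes reaching 1 FPKM in both, 244 were higher at E14.5, and with a pseudocount of 1, 217 were higher and 188 lower. Depth is unknown, so differences in low genes such as *Smad6* cannot be set against counting error.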
